A study of Mus musculus with 2 samples.

Results

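Ribosome biogenesis factors are the nucleolar and nuclear proteins that make, cut, modify and fold ribosomal RNA and assemble it into the small and large ribosomal subunits, without remaining in the finished ribosome. The 35 genes described here were chosen by name for that role, and all 35 met the level asked of them, a mean CPM (UMI counts of a gene per 1e+06 counts of all genes) of 10 or more over both libraries. They are 35 of the 8644 genes at that level, out of 31053 gene identifiers in the count tables. The members nearest the limit were Rrp12, with a mean of 12.7 CPM, and Wdr74, with 13.7 CPM, and no member's mean lay below it. Rrp12 and Bysl, at 8.92 and 9.89 CPM in bone marrow, met it only through their spleen levels.

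The study sorted lineage-low Sca1+ c-Kit-high (LSK) cells, the gate for blood stem and early progenitor cells, from C57BL/6 mice carrying an orthotopic Hepa1-6 tumour, a mouse hepatoma line injected into the left liver lobe at 6 to 8 weeks of age. One library came from bone marrow and 1 from spleen, both of tumour-bearing mice of the same strain. The labels do not say how many mice gave each library, and no tumour-free library was analysed here. With 1 library per tissue no test was possible, so every interval given is a 95% interval for counting error only, and animal, tissue and library cannot be told apart.

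Synthesis starts when RNA polymerase I copies the ribosomal DNA in the nucleolus. Box C/D and box H/ACA ribonucleoproteins then methylate and pseudouridylate the transcript, while the small subunit processome and a chain of large subunit factors fold and cleave it. The transcription factor MYC is known to drive many of these genes through the E-box CACGTG, and early red cell precursors are known for high ribosome production before they fill with haemoglobin.

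The letters CACGTG were searched in the promoter windows of the RefSeq table (build GRCm38.p6), which run from 250 bases before to 50 bases after each start site. The motif reads the same on both strands, so each match counts for both. A gene with more than 1 window, such as Rrp1b with 2 and Wdr12 with 3, was counted once. Of the 35 members 31 had a window, and 8 of these genes held the motif, or 25.8%. So did 16 of the 98 other biogenesis genes with a window (16.3%), 12.6% of the genes with a mean of 10 CPM or more that had one, and 8.09% of all genes in the table. Npm1, Fbl, Rrp12 and Bop1 had no entry. The 8 matches are shown because the E-box is the one DNA element textbook knowledge ties to this gene group. Each line runs 5′ to 3′ on the gene's strand with the motif in capitals and at most 12 flanking bases a side.
Nop2, chr6:125131811-125131840, plus strand: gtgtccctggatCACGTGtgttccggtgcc
Pes1, chr11:3963965-3963994, plus strand: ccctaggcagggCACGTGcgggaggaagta
Utp4, chr8:106893643-106893672, plus strand: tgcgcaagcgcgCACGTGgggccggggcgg
Wdr43, chr17:71616220-71616249, plus strand: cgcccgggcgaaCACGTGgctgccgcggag
Tsr1, chr11:74898092-74898121, plus strand: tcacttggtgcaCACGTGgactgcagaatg
Utp20, chr10:88826765-88826789, minus strand: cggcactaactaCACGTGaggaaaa
Pno1, chr11:17211540-17211564, minus strand: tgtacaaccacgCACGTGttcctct
Mybbp1a, chr11:72441355-72441376, plus strand: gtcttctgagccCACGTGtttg

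In Nop2 the motif began 60 bases before the start site (position -60), and in the other 7 it lay after it, from position 2 in Pes1 to position 40 in Mybbp1a. The 8 genes belong to 4 of the 7 roles: Nop2 and Pes1 to the large subunit, Utp4, Utp20 and Wdr43 to the small subunit processome, Tsr1 and Pno1 to late small subunit assembly, and Mybbp1a to the nucleolar proteins. A match describes these letters only, and a window without one says nothing about any factor.

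Depth was 73740963 UMIs (unique molecular identifiers, each standing for 1 captured transcript) over 10088 bone marrow cells, the median cell having 5991. For spleen it was 85937174 UMIs over 6546 cells and 9978 in the median cell. A total of 16 cell barcodes occurred in both libraries. The cell table deposited by the authors places each cell in 1 of 8 clusters (HSC-1, HSC-2, HSC-3, DCP, LP, MEP, MP and MCP) and gives 2 sets of reference labels, those of the scMCA atlas and those named Izzo. Those labels named a dendritic, T, B, mast or other mature lineage for 1.34% of bone marrow cells and for 54.8% of spleen cells (exact binomial interval 53.6% to 56.0%). They did so for 99.7% of spleen MP, 86.9% of LP, 84.8% of DCP, 43.5% of HSC-3, 30.9% of HSC-1 and 14.0% of HSC-2 cells, but for 1.12% of spleen MEP cells. Bone marrow MCP held 36 cells, fewer than the 100 set as a minimum, so no level of it is read below.

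Cluster MEP was the site of the highest biogenesis level in both tissues. Summed over the 35 members, bone marrow MEP cells stood at 12254 CPM (12148 to 12360) and bone marrow HSC-1 cells at 4180 CPM (4155 to 4205), a ratio of 2.93 (2.90 to 2.96). Spleen MEP cells stood at 15357 CPM (15314 to 15401) and spleen HSC-1 cells at 4337 CPM (4298 to 4376), a ratio of 3.54 (3.51 to 3.57). In both tissues HSC-2 came next, at 6824 CPM in bone marrow and 7219 CPM in spleen, followed by HSC-3 at 5643 and 6248 CPM.

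The remaining clusters lay near HSC-1 or under it. In bone marrow DCP had 4830, LP 4391 and MP 4018 CPM. In spleen LP had 4299, DCP 3879, MP 3366 and MCP 3188 CPM, so that in spleen the clusters made up largely of dendritic and mast cell labels had the lowest sums. Single cells showed the same order at the top: the interquartile range of MEP cells ran from 8678 to 13828 CPM in bone marrow and from 12554 to 16786 CPM in spleen, above the upper quartile of HSC-1 cells at 4876 and 4944 CPM. In UMIs, a median MEP cell gave 122 member UMIs in bone marrow and 545 in spleen, and a median HSC-1 cell 19 and 28.

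**Figure D1:**
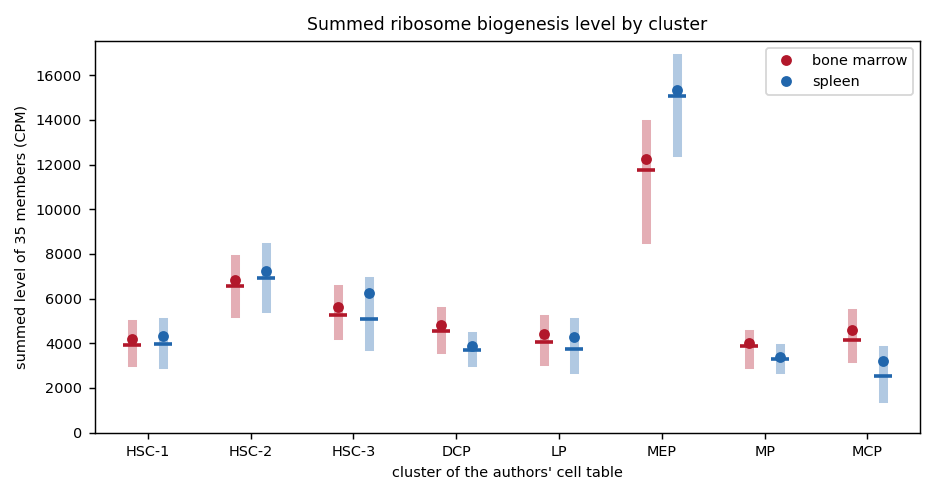
Summed CPM of the 35 members (vertical axis) in each cluster (horizontal axis), bone marrow in red and spleen in blue; dots are sums over all cells of the cluster, short horizontal lines the median cell and pale bars the interquartile range of cells. MEP stands highest in both libraries, at 12254 and 15357 CPM; bone marrow MCP rests on 36 cells.

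The MEP label was checked against its markers. The 8 erythroid markers (Klf1, Gata1, Car1, Ermap, Epor, Hbb-bt, Hba-a1, Tfrc) summed to 2827 CPM in bone marrow MEP and 3879 CPM in spleen MEP, and to 81.4 and 95.9 CPM in HSC-1, with none at 0 in MEP. The 5 megakaryocyte markers summed to 46.5 CPM in bone marrow MEP and 6.58 CPM in spleen MEP, with Gp1bb at 0 in bone marrow. MEP thus held RNA of the red cell lineage and little of megakaryocytes. Ly6a, which encodes the Sca1 of the sort gate, stood at 5.96 and 5.31 CPM in MEP against 108 and 130 CPM in HSC-1, while Kit stood at 245 and 143 CPM against 319 and 316 CPM.

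All 35 members were at least 1.5-fold higher in MEP than in HSC-1, in bone marrow and again in spleen. Of all 8644 genes 19.2% were that much higher in bone marrow MEP and 23.5% in spleen MEP. The members' median log2 ratio was 1.67 in bone marrow and 1.79 in spleen, where the median of all genes was -0.20 and -0.23, and 32.6% and 38.9% of all genes were at least 1.5-fold lower. MEP cells were also deeper than HSC-1 cells, with medians of 11230 against 4794 UMIs in bone marrow and 36084 against 6934 in spleen. With every cell thinned to 3700 UMIs, which left out 1007 bone marrow and 672 spleen cells, all 35 were still at least 1.5-fold higher in both tissues, with medians of 1.59 and 1.71.

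Among the nucleolar proteins Nolc1 differed most. Nolc1 encodes a phosphoprotein that shuttles between nucleolus and Cajal bodies and carries small nucleolar ribonucleoproteins. Its level was 55.8 CPM in HSC-1 and 382 CPM in MEP of bone marrow, and 64.4 and 431 CPM in spleen, ratios of 6.85 (6.38 to 7.35) and 6.69 (6.20 to 7.23). Ncl, which encodes nucleolin, went from 1186 CPM in HSC-1 to 3185 in MEP in bone marrow and from 1029 to 4047 in spleen.

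Npm1, which encodes nucleophosmin, a histone and ribosome chaperone, stood at 1080 and 2794 CPM in bone marrow and at 1243 and 3961 CPM in spleen. Together Ncl and Npm1 supplied over 50% of the member UMIs in each library, 26.5% and 26.0% in bone marrow and 25.1% and 26.9% in spleen, so the sums follow them most. Without both genes the log2 ratio of MEP to HSC-1 was 1.71 in bone marrow, against 1.55 with them. Gnl3 (nucleostemin), Mybbp1a and the RNA helicase Ddx21 were 2.803 to 3.32 times higher in MEP in either tissue.

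The box C/D factors guide methylation of ribosomal RNA, with Fbl encoding the methyltransferase fibrillarin and Nop56 and Nop58 its scaffold. Rrp9, the U3-specific member of the group, differed most: 12.7 CPM in HSC-1 and 58.4 in MEP of bone marrow, 15.1 and 87.4 in spleen, ratios of 4.61 (3.90 to 5.45) and 5.79 (4.94 to 6.82). Nop56, Nop58 and Fbl were 2.85 to 4.27 times higher.

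The box H/ACA factors, which place pseudouridines, were higher as a set of 4, with a summed ratio of 4.01 in bone marrow and 4.72 in spleen. Nop10 had 110 CPM in HSC-1 and 526 in MEP of bone marrow and 125 and 705 CPM in spleen. Nhp2 had 69.1 and 301 CPM in bone marrow and 112 and 545 CPM in spleen. Dkc1, the pseudouridine synthase, and Gar1 were 2.79 to 3.93 times higher.

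The 3 RNA polymerase I subunits differed from one another. Polr1b, which encodes the second largest subunit, was 4.06 times (3.39 to 4.86) higher in bone marrow MEP and 3.92 times (3.29 to 4.71) in spleen MEP. Polr1a, which encodes the largest subunit, was 2.11 and 2.06 times higher, and Polr1c, a subunit shared with RNA polymerase III, 1.93 and 2.56 times. The interval of Polr1b did not overlap that of Polr1a in either tissue.

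Polr1a was also the only member whose highest cluster was not MEP. In spleen it stood at 84.2 CPM in MP and 82.7 CPM in MEP, too close to be ordered given counting error, followed by 57.8 CPM in DCP. MEP was the highest cluster for all 35 members in bone marrow and for the other 34 in spleen, as it was for 24.4% and 25.4% of all 8644 genes.

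**Figure D2:**
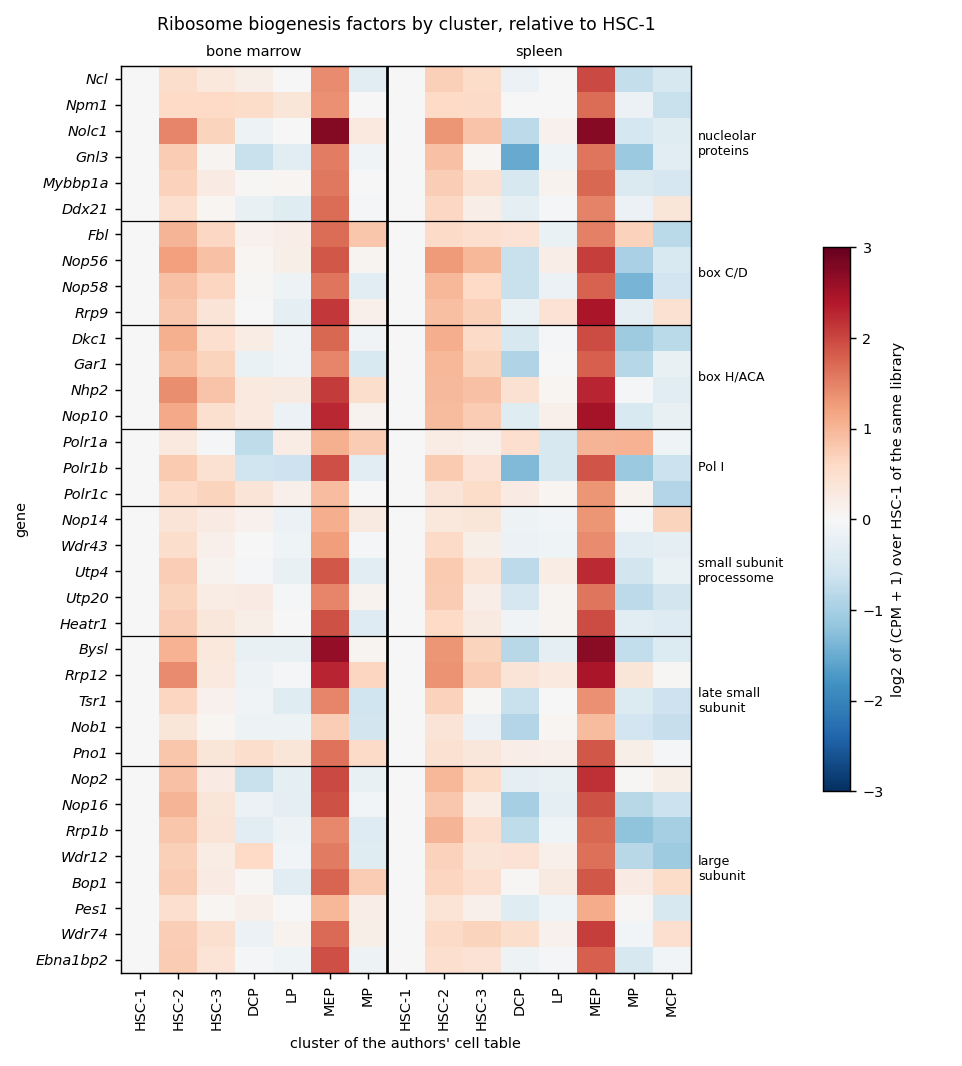
Each member (rows, grouped by role) in each cluster of at least 100 cells (columns), as the log2 of CPM + 1 over that in HSC-1 of the same library; red is higher and blue lower than HSC-1. The MEP columns are red for all 35 members in both libraries, HSC-2 is the next reddest, and spleen DCP and MP are mostly blue.

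In the small subunit processome, the first large particle on the nascent transcript, Utp4 and Heatr1 differed most. Utp4 had 18.1 CPM in HSC-1 and 68.1 in MEP of bone marrow and 14.0 and 69.6 CPM in spleen. Heatr1 was 3.92 and 4.05 times higher in MEP. Utp20, Wdr43 and Nop14 were 2.15 to 3.16 times higher.

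Late small subunit assembly held members at both ends of the range. Bysl, which encodes the assembly factor bystin, had 5.72 CPM in HSC-1 and 40.7 in MEP of bone marrow and 7.09 and 51.8 CPM in spleen, ratios of 7.12 (5.69 to 8.91) and 7.31 (5.81 to 9.31), whose intervals overlapped those of Nolc1. On the log2 scale of CPM + 1 Nolc1 was the highest member, at 2.75 and 2.72, and Bysl next, at 2.63 and 2.71. Nob1, the nuclease that makes the final cut of the small subunit RNA, had the lowest ratios of the 35: 46.9 and 79.3 CPM in bone marrow, 50.9 and 99.0 CPM in spleen, ratios of 1.69 (1.49 to 1.91) and 1.95 (1.78 to 2.13). Its cofactor Pno1 was 3.22 and 3.74 times higher, the export factor Rrp12 5.73 and 6.36 times, and Tsr1 2.85 and 2.66 times.

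Of the large subunit factors Nop2, an RNA methyltransferase, was 4.13 (3.55 to 4.80) and 4.79 (4.12 to 5.60) times higher in MEP, from 16.7 CPM in HSC-1 of either tissue to 68.9 and 79.8 CPM. Pes1, Bop1 and Wdr12 form one complex but did not differ alike. Pes1 was 2.03 (1.82 to 2.26) and 2.18 (1.99 to 2.39) times higher, Wdr12 2.95 and 3.19 times, and Bop1 3.54 (2.95 to 4.24) and 3.81 (3.24 to 4.51) times, so the Pes1 interval lay below the other 2 in both tissues. Ebna1bp2, Nop16, Rrp1b and Wdr74 were 2.79 to 4.70 times higher.

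The other listed genes of the pathway differed in the same direction but less. Of 117 measured among 119 listed, 80 were at least 1.5-fold higher and 2 lower in bone marrow MEP, with a median log2 ratio of 0.88. In spleen MEP 92 were higher and 1 lower, with a median of 1.12. The highest in both was Mrto4, a large subunit factor, at 27.6 CPM in HSC-1 and 120 in MEP of bone marrow and 38.0 and 213 CPM in spleen. The lower ones were Znrd1 in both tissues, a small RNA polymerase I subunit with log2 ratios of -0.72 and -0.79, and in bone marrow the polymerase I terminator factor Ttf1, at -0.59.

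HSC-2 differed from HSC-1 in the same direction. In bone marrow 27 of 35 members were at least 1.5-fold higher and none lower, where 10.9% of all genes were higher and 12.5% lower. In spleen 25 of 35 were higher and none lower, where 9.84% of all genes were higher and 11.1% lower. Nolc1 stood at 155 CPM in bone marrow HSC-2 and 164 CPM in spleen HSC-2, and Rrp12 at 14.5 and 14.2 CPM, the 2 largest log2 ratios in each tissue (1.46 and 1.42 in bone marrow, 1.33 and 1.35 in spleen). The 8 replication markers moved with this result, from 366 CPM in HSC-1 to 1230 in HSC-2 of bone marrow and from 293 to 1198 in spleen, and so did those of several lineages. Erythroid markers went from 81.4 to 257 CPM in bone marrow and from 95.9 to 457 CPM in spleen. Neutrophil markers went from 834 to 5998 CPM and from 444 to 1205 CPM. Megakaryocyte markers went from 65.0 to 549.6 CPM and from 54.5 to 326 CPM, and T and NK cell markers from 78.2 to 200.3 CPM and from 304 to 804 CPM. The part of these markers in the members' levels was not tested.

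HSC-3 held 8 higher members in bone marrow and 10 in spleen, against 9.5% and 10.5% of all genes, and none lower, against 9.61% and 14%. In LP, MP and MCP the share of members higher was below the background. LP had none higher and 1 lower in bone marrow (4.11% and 7.51% of all genes) and none in either direction in spleen (6.77% and 13.8%). MP had 4 higher and 1 lower in bone marrow (12.1% and 20.2%) and 2 higher and 12 lower in spleen (8.24% and 37.9%). Spleen MCP, whose median cell had 1827 UMIs, had 1 higher and 10 lower (11.1% and 23.1%).

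Markers of division were set beside the members. The 6 cycling markers (Mki67, Top2a, Cenpf, Ube2c, Ccnb1, Birc5) were highest in DCP, at 5193 CPM in bone marrow and 4611 CPM in spleen, came next in HSC-3, at 2960 and 3130 CPM, and stood at 868 and 1663 CPM in MEP and at 355 and 352 CPM in HSC-1. Bone marrow DCP had 1 member higher and 4 lower than HSC-1 at 1.5-fold, against backgrounds of 6.93% and 6.64%, and spleen DCP had none higher and 12 lower, against 11.6% and 28.5%. The replication markers were highest in the same 3 clusters as the members, at 1079 and 1203 CPM in MEP, 1230 and 1198 CPM in HSC-2 and 1095 and 1036 CPM in HSC-3, and stood at 360 and 183 CPM in DCP. The part of division in the members' levels was not tested.

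Within HSC-1 the members' sum also varied between cells. Split into 4 bins of nearly equal cell number by the stemness score in the cell table, bone marrow HSC-1 cells went from 3504 to 3878, 4166 and 4931 CPM, and spleen HSC-1 cells from 3553 to 4004, 4280 and 5066 CPM. The bins with the highest score therefore held the highest sums in both tissues. Over the same bins the replication markers went from 209 to 593 CPM in bone marrow and from 184 to 441 CPM in spleen, while the 6 stem cell markers (Hlf, Mecom, Procr, Mllt3, Fgd5, Meis1) went from 1649 to 1123 and from 1120 to 523 CPM. Median depth also differed, from 4296 to 5542 UMIs in bone marrow and from 5608 to 9065 in spleen, and its part was not tested. By pseudotime, which 610 bone marrow and 123 spleen HSC-1 cells lack, the 4 bins of bone marrow stayed between 3968 and 4123 CPM, and those of spleen went from 4447 in the first to 3672 in the last.

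With the UMIs of all sorted cells pooled, the members were higher in spleen. Their sum was 5663 CPM (5646 to 5680) in bone marrow and 8618 CPM (8599 to 8638) in spleen, a ratio of 1.52 (1.516 to 1.528). The median single cell went the other way, at 4638 CPM in bone marrow and 4105 CPM in spleen. Lower quartiles of cells were 3551 and 3093 CPM, and upper quartiles 6074 and 6370 CPM. Of the 35 members 17 were at least 1.5-fold higher in spleen and none lower, where 10.8% of all genes were higher and 18.3% lower, and all 35 had a log2 ratio above 0. The median was 0.55, where that of all genes was -0.11. Scaling by the trimmed mean of M-values (TMM) in place of totals moved the background to 18.6% higher and 10.9% lower, and then 29 members were higher. With every cell thinned to 3700 UMIs 3 members were higher, close to the 7.74% of all genes that were, and the median was 0.22. Without the cells of other-lineage labels 33 were higher, against 14.3% of all genes, and the median was 1.02.

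By role, the counts at 1.5-fold were 4 of 4 box H/ACA factors, 6 of 8 large subunit factors, 3 of 5 late small subunit factors, 2 of 4 box C/D factors and 2 of 6 nucleolar proteins. None of the 3 polymerase I subunits and none of the 5 processome factors reached it. The largest ratio was that of Bysl, at 9.89 CPM in bone marrow and 24.3 CPM in spleen (2.46, 2.26 to 2.68). Rrp9 followed, at 18.6 and 43.8 CPM (2.35, 2.21 to 2.51), and Nhp2, at 126 and 291 CPM (2.32, 2.26 to 2.37). The smallest were Pes1, at 59.95 and 72.3 CPM (1.21, 1.16 to 1.25), and Utp20, at 29.7 and 35.9 CPM. Of the members counted, Bysl and Rrp12 met the mean of 10 CPM only through spleen, so their calls are not independent of that filter.

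Other members on either side of the 1.5-fold line were close together. Wdr12, at 104 and 157 CPM, had a log2 ratio of 0.59 and counted, and its ratio's interval (1.46 to 1.55) crossed the line. Polr1b, at 16.8 and 25.1 CPM, was 1.49 times higher (1.39 to 1.60) and did not count. Ncl, at 1501 and 2162 CPM, was 1.44 times higher, and Npm1, at 1473 and 2322 CPM, had a log2 ratio of 0.66.

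The remaining genes of the pathway list gave 27 higher and none lower of 117, with a median log2 ratio of 0.40. Mrto4 led, at 45.5 CPM in bone marrow and 108 CPM in spleen, followed by Wdr75, a processome factor, at 30.6 and 58.4 CPM, and Nip7, a large subunit factor, at 44.3 and 83.0 CPM. The lowest were Taf1d, part of the polymerase I initiation factor, at 368 and 266 CPM, then Gnl3l at 44.4 and 33.3 CPM and Nop53 at 312 and 244 CPM.

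Between the pooled libraries, MEP cells also differed in number and depth. MEP made up 3.54% of bone marrow cells (3.19% to 3.92%) and 13.6% of spleen cells (12.8% to 14.5%), and 5.69% and 36.8% of all UMIs. It supplied 12.3% of the member UMIs in bone marrow and 65.6% in spleen (exact binomial intervals 12.2% to 12.4% and 65.5% to 65.7%). Without MEP no member was 1.5-fold higher in spleen and 27 of 35 had a log2 ratio below 0, the median log2 ratio was -0.12 and that of the sum -0.17. With each cell weighted alike, 2 members were higher, against 8.13% of all genes, and the median was 0.20. With each cluster given the same weight in both libraries none was higher and the median was 0.09. The parts of MEP cells and of cells with other-lineage labels in the pooled difference were not tested.

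Within clusters the tissues were closer. In HSC-1 only Nhp2 was at least 1.5-fold higher in spleen and none lower, where 5.5% of all genes were higher and 5.06% lower, and the members' median was 0.06. Nhp2 had 69.1 CPM in bone marrow HSC-1 and 112 CPM in spleen HSC-1, a log2 ratio of 0.69. Dendritic markers also differed between the tissues within HSC-1, at 687 and 11800 CPM, and mast and basophil markers at 8.0 and 903 CPM. Without the cells of other-lineage labels 2 members were higher and none lower, against 2.08% and 2.65% of all genes, and the median was 0.17. Among all HSC-1 cells Fbl followed Nhp2, at 121 and 171 CPM, while Utp4, at 18.1 and 14.0 CPM, and Ncl, at 1186 and 1029 CPM, were the lowest. In HSC-2 none reached 1.5-fold in either direction, where 2.55% of all genes were higher and 2.79% lower, from Bysl (12.96 and 19.4 CPM) and Rrp9 (22.8 and 29.3 CPM) down to Wdr74 (12.5 and 10.8 CPM) and Utp4 (31.0 and 24.8 CPM).

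Within MEP, 2 members were at least 1.5-fold higher in spleen and none lower, where 7.14% of all genes were higher and 20% lower. They were Nhp2, at 301 CPM in bone marrow and 545 CPM in spleen (1.81, 1.71 to 1.92), and Pno1, at 58.4 and 90.1 CPM (1.54, 1.35 to 1.77). At the other end Polr1a had 91.0 and 82.7 CPM and Ddx21 534 and 491 CPM. The median log2 ratio was 0.24, against -0.08 for all genes. With TMM scaling it was 0.45, against 0.12 for all genes.

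**Figure D3:**
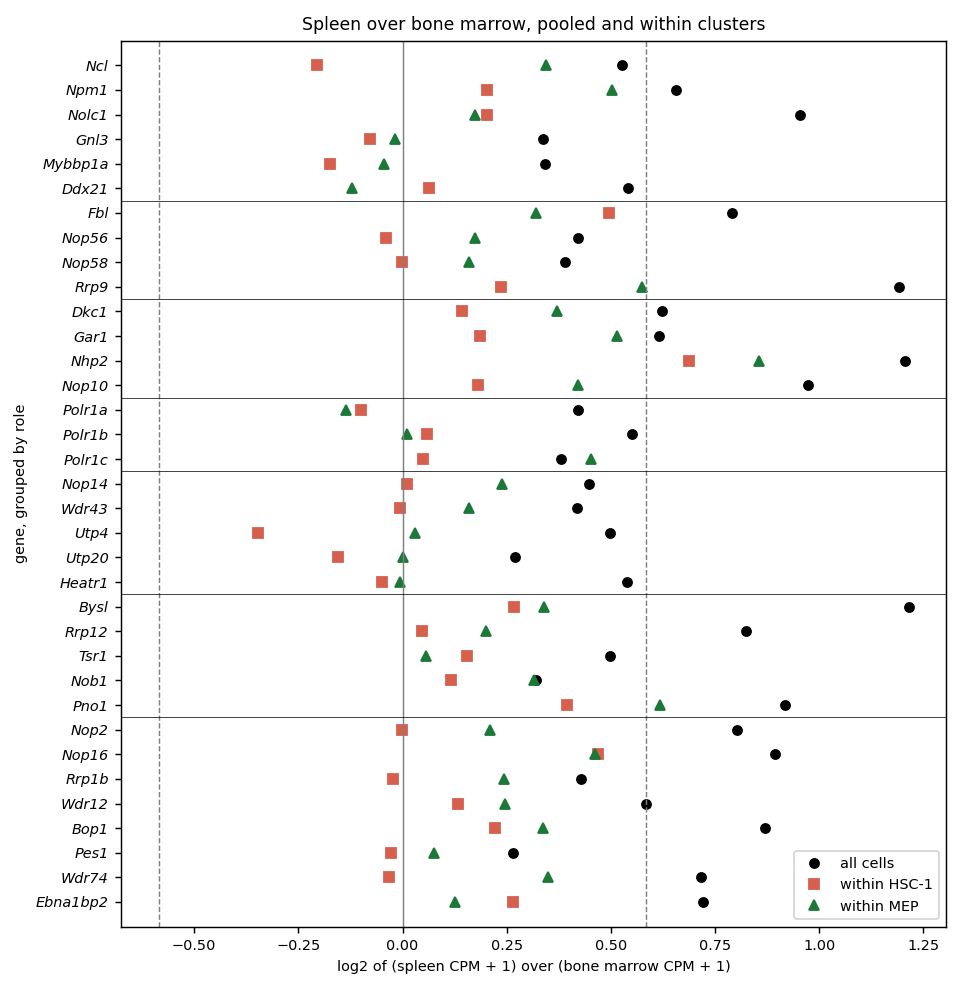
Log2 ratio of spleen to bone marrow (horizontal axis, CPM + 1) for each member (vertical axis, grouped by role) over all cells (black circles), within HSC-1 (red squares) and within MEP (green triangles); dashed lines mark 1.5-fold. All black circles lie right of 0, with 17 beyond the right line, while 1 square and 2 triangles lie beyond it.

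HSC-3 gave 2 members higher, Nhp2 (125 and 205 CPM) and Bysl (7.42 and 11.9 CPM), and none lower, against 6.48% and 9% of all genes, with Utp20 and Gnl3 the lowest at log2 ratios of -0.18 and -0.11. Without the cells of other-lineage labels 12 were higher and none lower, against 5.3% and 7.88% of all genes, and the median went from 0.17 to 0.50. Over all HSC-3 cells, the 8 dendritic markers stood at 679 CPM in bone marrow and 11888 CPM in spleen. Erythroid markers stood at 148 and 439 CPM, and T and NK cell markers at 98.6 and 726 CPM. Stem cell markers, at 712 and 275 CPM, and neutrophil markers, at 1103 and 280 CPM, were lower in spleen. The part of these markers in the members' ratios was not tested beyond the count without other-lineage labels.

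In the clusters dominated by other-lineage labels in spleen, the ratios fell on both sides. LP had 2 members higher, Rrp9 (10.3 and 20.8 CPM) and Bop1 (9.75 and 18.1 CPM), and 1 lower, Polr1a (50.7 and 28.6 CPM), against 8.68% and 12.1% of all genes. DCP had 5 higher and 8 lower, against 12.3% and 34.2%, from Polr1a (25.2 and 57.8 CPM) and Nhp2 (85.5 and 153 CPM) down to Gnl3 (116 and 60.3 CPM) and Utp4 (17.7 and 7.69 CPM). MP had none higher and 9 lower, against 6.76% and 34%, with Nop56 (117 and 54.0 CPM) and Gnl3 (170 and 80.2 CPM) lowest.

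Dendritic markers stood at 726 CPM in bone marrow DCP and 40012 CPM in spleen DCP, and at 24970 and 57098 CPM in the MP of each tissue. The members' medians in DCP and MP, -0.34 and -0.29, were close to those of all genes, -0.30 in both. The counts in these clusters lay near the background or under it.

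The reference labels allow like-named cells to be set side by side. In the Izzo set the members' sum was 8924 CPM in bone marrow and 8930 CPM in spleen cells labelled Ery-1, 13158 and 13282 CPM in Ery-2, and 15010 and 16153 CPM in Ery-3. The spleen to bone marrow ratios were thus 1.00 (0.97 to 1.03), 1.01 (0.99 to 1.03) and 1.08 (1.06 to 1.09). No member was 1.5-fold higher or lower in Ery-2 or Ery-3, where 5.48% and 5.9% of all genes were higher and 8.62% and 12.1% lower. In Ery-1, which rests on 125 and 137 cells, 1 was higher (Bop1) and 6 lower, against 9.61% and 11.6%. Nhp2 kept the largest ratio in Ery-2 (328 and 412 CPM) and Ery-3 (404 and 585 CPM, 1.45, 1.32 to 1.60).

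The makeup of MEP by these labels differed between the tissues. Ery-3 cells made up 19.3% (15.4% to 23.8%) of bone marrow MEP and 69.1% (66.0% to 72.2%) of spleen MEP, Ery-2 cells 36.7% and 14.9%, and Ery-1 cells 29.97% and 10.5%. Set against the Izzo label HSC-1, with sums of 4860 and 5502 CPM, Ery-1 cells had 32 members at least 1.5-fold higher in bone marrow and 23 in spleen (9.9% and 7.95% of all genes) and none lower (24.7% and 22.4%). From Ery-1 to Ery-3, 22 of 35 members were at least 1.5-fold higher in bone marrow and 31 of 35 in spleen, against 20.9% and 19.4% of all genes, and none was lower, against 29.5% in both. Depth also differed along these labels, from medians of 5519 to 16710 UMIs in bone marrow and from 10502 to 41602 in spleen, and its part was not tested.

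**Figure D4:**
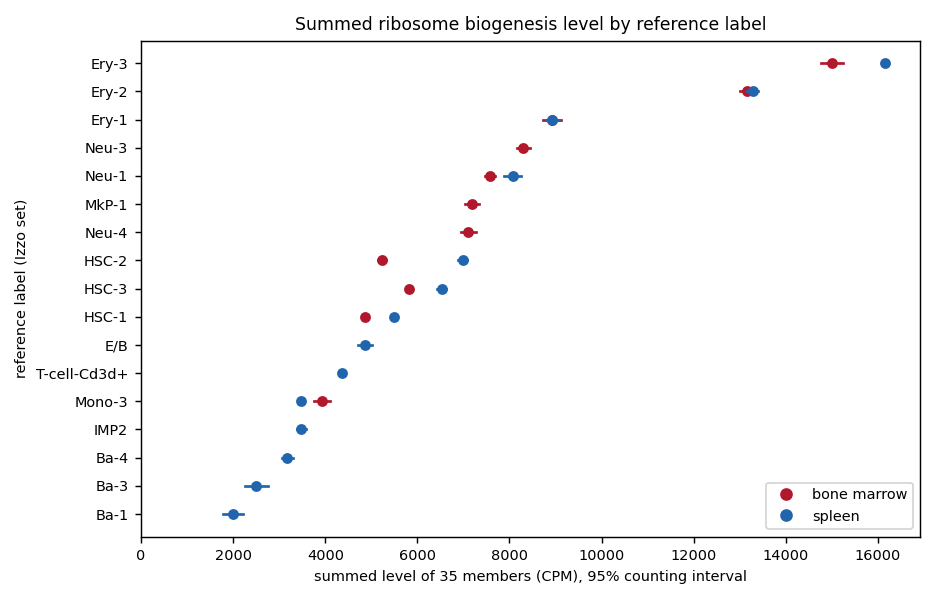
Summed CPM of the 35 members (horizontal axis, bars are 95% counting intervals) for each Izzo label with at least 50 cells in a library (vertical axis), bone marrow in red and spleen in blue. Ery-1, Ery-2 and Ery-3 stand at the top with nearly equal values in the 2 libraries, and the Ba labels, found in spleen, at the bottom.

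Splitting MEP by its own depth gave the same order. Over 4 bins from the shallowest to the deepest cells the sum went from 9438 to 9826, 12178 and 13739 CPM in bone marrow and from 11267 to 14780, 15753 and 16588 CPM in spleen. The erythroid markers went from 1484 to 3548 CPM and from 2517 to 4201 CPM over the same bins. Depth and erythroid RNA thus moved together with the members, and their parts were not tested.

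Other labels gave ratios on either side of those. In the scMCA label for fetal liver stem and progenitor cells, 1455 bone marrow and 604 spleen cells had sums of 5997 and 8563 CPM, a ratio of 1.43 (1.41 to 1.44), and 13 members were at least 1.5-fold higher in spleen against 5.92% of all genes. Bysl led with 9.16 and 23.9 CPM, then Nhp2 with 135 and 283 CPM. The Izzo label HSC-2 gave 10 higher members against 5.4% of all genes and a ratio of 1.34 (1.31 to 1.36), whereas the scMCA multipotent label, with 7205 and 1248 cells, gave none against 1.75% and a ratio of 1.02 (1.01 to 1.03). The Izzo labels HSC-1 and HSC-3 lay between, with 3 and 4 higher members against 2.38% and 4.5% and ratios of 1.13 and 1.12. No member was 1.5-fold lower in these 5 labels, where 8.82%, 11.6%, 2.89%, 3.6% and 5.81% of all genes were. Spleen cells were deeper in all 5. Median UMIs were 8900 and 13198 in the fetal liver label, 9182 and 14895 in the Izzo label HSC-2, and 5538 and 7477 in the multipotent label. The part of depth in these ratios was not tested.

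The remaining labels with at least 50 cells in each library were an erythroid, a megakaryocyte, a neutrophil and a pair of mature ones. The scMCA label for Car1-high erythrocyte progenitors had a ratio of 1.12 (1.11 to 1.13), with 1 member higher, Nhp2, and none lower, against 4.27% and 11.8% of all genes. The megakaryocyte progenitor label of the same set had a ratio of 1.16 (1.14 to 1.18) and no member called, against 2.19% and 5.75%. In the Izzo label Neu-1 the ratio was 1.06 (1.04 to 1.09), with 2 higher and 1 lower, against 7.86% and 11.4%. The members were lower in spleen in the Izzo label Mono-3, at 0.88 (0.85 to 0.92), and in the Cst3-high dendritic label, at 0.89 (0.85 to 0.93). Mono-3 had 1 member higher and 7 lower, against 8.25% and 23.8%, and the dendritic label 2 higher and 7 lower, against 7.79% and 25.5%. In bone marrow these labels rest on 63 and 59 cells.

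Among the 10 measured genes of the MYC network, Myc itself was the one at least 1.5-fold higher in MEP than in HSC-1 in both tissues, as the members were. In bone marrow 1 of the 10 was higher and 3 lower, against 19.2% and 32.6% of all genes, and in spleen 2 were higher and 6 lower, against 23.5% and 38.9%. The bone marrow counts thus lay near the background. Myc had 63.4 CPM in HSC-1 and 162 in MEP of bone marrow, and 63.3 and 143 CPM in spleen, ratios of 2.56 (2.34 to 2.80) and 2.26 (2.08 to 2.45). Mxd4, which encodes a repressor that competes with MYC for the partner MAX, had 189 and 53.4 CPM in bone marrow and 155 and 17.5 CPM in spleen. Mxd1, of the same family, had 33.9 and 14.3 CPM in bone marrow and 24.9 and 6.58 CPM in spleen. Mycn had 44.2 and 11.2 CPM in bone marrow and 79.4 and 3.95 CPM in spleen, and thus stood low in MEP where Myc stood high.

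Max, the shared partner, had 70.5 and 52.7 CPM in bone marrow and 65.5 and 52.0 CPM in spleen. Mxi1 (39.4 and 35.02, then 36.6 and 23.0 CPM), Mnt (35.4 and 26.2, then 34.1 and 15.2 CPM) and Mga (144 and 127, then 124 and 88.5 CPM) were also lower in MEP of both tissues, and Mlx (17.1 and 21.7, then 20.2 and 31.1 CPM) higher, but the bone marrow intervals of Mxi1 and Mlx included equal levels. Mycl was at 0 UMIs in bone marrow HSC-1 and 1 UMI in bone marrow MEP, and had 27.4 CPM in spleen HSC-1 and 1.14 CPM in spleen MEP. It counts as measured only through its spleen level.

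Unlike the members, Myc stood at the same pooled level in both tissues, 81.0 CPM (79.0 to 83.1) in bone marrow and 82.8 CPM (80.9 to 84.7) in spleen. Mycl, at 1.78 and 38.5 CPM, was the gene of this list that was at least 1.5-fold higher in spleen, and Mxd1 (27.1 and 14.7 CPM) and Mxd4 (149 and 90.03 CPM) were the 2 that were lower, counts close to the 10.8% and 18.3% of all genes. Mycl met the mean of 10 CPM only through its spleen level, so its call followed from that filter and is not read. The 8 dendritic markers moved with Mycl, from 999 to 15678 CPM over the pooled libraries, and their part was not tested.

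**Figure D5:**
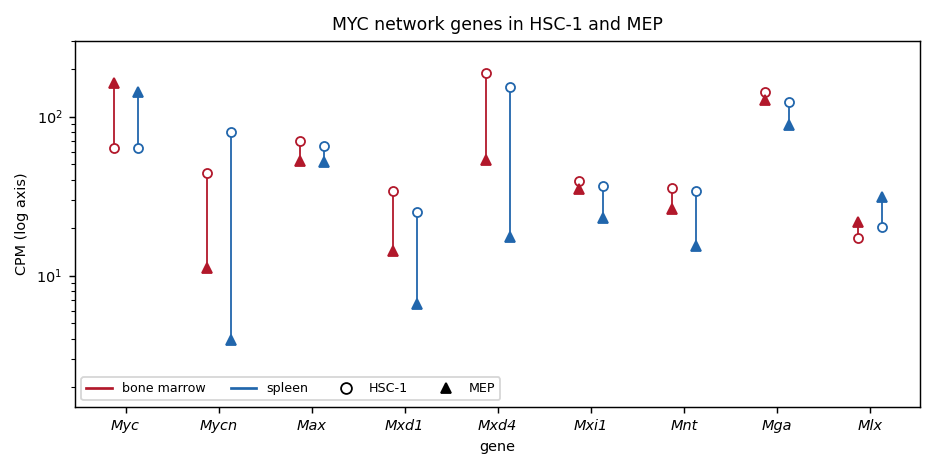
CPM on a log axis (vertical) of 9 MYC network genes (horizontal) in HSC-1 (open circles) and MEP (triangles), bone marrow in red and spleen in blue. Myc is higher in MEP, at 162 and 143 CPM, and Mycn, Mxd1 and Mxd4 are lower in both libraries.

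Some member counts carry a limit from the gene models. In all, 16 members overlap another gene on the opposite strand in the GENCODE M21 annotation, among them Bysl with Ccnd3, Heatr1 with Lgals8, Gnl3 with Pbrm1 and Nhp2 with Rmnd5b. Whether counting used strand is not given in the sources used here, so reads of such pairs may not be told apart. Ccnd3 had 18218 UMIs against 2815 for Bysl, so the Bysl levels are uncertain.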

How the data were processed

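Cells were LSK cells of bone marrow and spleen, 1 library each, made with a 10x 3′ kit (version 3 in the series' design text, 3.1 per the labels' protocols). The authors aligned reads to mm10 and deposited UMI counts per gene and cell from Cell Ranger 3.1.0, per the series' design text, whereas the submitters' processing notes list mm9 and Seurat 3.1.5. The design text gives an average of 27000 reads per cell. Clusters, reference labels, pseudotime and stemness score values were deposited by the authors in a cell table, whose headers do not say how they were computed. A table of integrated values was not used here.

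All deposited cells were kept. UMIs were summed per library, cluster or label and scaled to CPM. Symbols came from GENCODE M21 by Ensembl ID (30934 of 31053 matched). Log2 ratios used CPM + 1, calls were at 1.5-fold, and intervals were exact Poisson or binomial at 95%, covering counting error only. A cell counted as other-lineage where its scMCA or Izzo label named a dendritic, T, NK, B, mast, basophil, macrophage or monocyte type, words set after the label names were read. The scMCA monocyte progenitor labels were not among them. In bone marrow 106 cells had the Ctsg-high one and 80 the one without that addition. Scrublet, through scanpy 1.11.5, called 186 spleen cells doublets (2.84%) but 1 bone marrow cell (0.0099%), so it did not work there and cells were removed in an alternative only. TMM factors came from edgeR 4.0.16. Other tools were Python 3.11.15, numpy 2.4.6 and scipy 1.17.1. The ratio and interval code was tested on simulated counts.

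Named genes were all 35 members, the 2 highest and 2 lowest within a cluster, the 3 highest and 3 lowest of the other pathway genes, and the MYC network. Other genes and labels named were chosen after their values were seen. Members and lists were chosen with earlier results of these data known. Alternatives were other scalings, pseudocounts, filters and cell selections.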

Additional observations from a re-analysis of the deposited data

How the results depend on the processing

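Results were recomputed under other scalings, filters and cell selections, and the sums also without Npm1 and Ncl, a setting chosen after seeing the data. Of 121 recomputed values for whole comparisons 85 kept their place. A log2 ratio did so when it stayed within the counting interval of the main value, which for a median was the median of the members' limits. A count did so when it stayed within 1.5-fold of the main count. Keeping place thus allowed a change of sign, as in the DCP and MP medians with TMM scaling. The 85 include the values with a minimum of 1 CPM, which could not move because all 35 members had already passed 10 CPM. The counts of members 1.5-fold higher in spleen over all cells (17), their median log2 ratio (0.55) and that of their sum (0.61) became 29, 0.75 and 0.82 with TMM scaling, 33, 1.02 and 1.05 without cells of other-lineage labels, and 31, 0.88 and 0.91 without clusters LP, DCP, MP and MCP. They became 3, 0.22 and 0.20 with cells thinned, 2, 0.20 and 0.15 with each cell weighted alike, and 0, 0.093 and 0.067 with clusters weighted alike. Without MEP they were 0, -0.12 and -0.17, so the sum changed direction, as did 27 of 35 members. The farthest below 0 were Utp4 (-0.54), Utp20 (-0.46), Gnl3 (-0.43), Nop56 (-0.43), Nop58 (-0.43) and Ncl (-0.39). The 11 of the 17 called members that changed direction were Npm1 (-0.027), Nolc1 (-0.19), Dkc1 (-0.26), Gar1 (-0.18), Nop10 (-0.13), Rrp12 (-0.0031), Nop2 (-0.053), Nop16 (-0.025), Wdr12 (-0.12), Wdr74 (-0.11) and Ebna1bp2 (-0.029). Centring on the median gene gave 0.66 and 0.71, a minimum of 50 CPM gave 10 higher of 22, and 2-fold calls gave 3. Without Npm1 and Ncl the log2 ratio of the sum was 0.62. Within clusters TMM moved the median of all genes too: the members' median was 0.45 in MEP (all genes 0.12), 0.021 in DCP (0.069) and 0.14 in MP (0.13), against -0.34 in DCP and -0.29 in MP with totals. Without other-lineage labels it was 0.50 in HSC-3, 0.26 in DCP and -0.83 in MP. That setting removed 256 of 302 spleen DCP cells, 1409 of 1413 spleen MP cells and 81 of 118 bone marrow MP cells. DCP and MP thus fell under the minimum of 100 cells, and these medians of theirs are not read. The log2 ratio of the sum in MEP to that in HSC-1 was 1.55 in bone marrow (1.46 thinned, 1.48 with cells weighted alike, 1.71 without Npm1 and Ncl) and 1.82 in spleen (1.74 thinned, 1.84 without called doublets, 1.73 without other-lineage labels). The cause of these shifts was not tested.

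No paired analysis was possible because each tissue has 1 library, and for the same reason no replicate was left out. Low members such as Bysl and Rrp12 are limited by depth, with 152 and 127 UMIs in bone marrow HSC-1.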
